A study of Homo sapiens with 8 samples.

Results

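The regions described here are 519 accessible sites that 2 lung cancer cell lines shared without drug and that, after the SWI/SNF degrader ACBI1, were no longer listed as peaks in H1975 while they were still listed in HCC44. They were selected on peak presence in the deposited lists of all 8 samples. Overlapping peaks (at least 1 bp) of the 8 lists on chromosomes 1 to 22 and X were merged into 69078 regions, and a member had a peak in all 4 DMSO lists and in both HCC44 ACBI1 lists and in neither H1975 ACBI1 list. Members made up 3.14% of the 16526 regions with a peak in all 4 DMSO and both HCC44 ACBI1 lists, called the 6-list regions below. Because every list took part in this choice, all that follows is a description with no test.

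The assay was ATAC-seq: a transposase cuts DNA that nucleosomes leave free and tags the ends for sequencing, so that a peak marks an accessible stretch of DNA. H1975 and HCC44 are established human lung cancer lines, both labelled WT for genotype. Cells were exposed to ACBI1 (labelled as 1 mM) or to its solvent DMSO, in both cases for 96 h, giving 4 groups: H1975 DMSO, H1975 ACBI1, HCC44 DMSO and HCC44 ACBI1, with 2 replicates each. The labels do not say whether replicates came from separate cultures.

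SWI/SNF (BAF) complexes use the ATPases SMARCA4 and SMARCA2 to slide or evict nucleosomes, and they are known for keeping enhancers open where factors such as AP-1 bind. Promoters rich in CpG are known to depend on them less. ACBI1 joins SMARCA2, SMARCA4 and PBRM1, the defining subunit of the PBAF form, to an E3 ubiquitin ligase and so has them degraded.

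Few members lay at gene starts, and the sequences of 8 that did are shown first, because their letters can be set beside all promoters of the genome. Each is the 250 bases before a RefSeq transcription start (GRCh38.p14), read 5′ to 3′ on the strand of the gene and lying wholly inside a member. A member joins the peaks of several lists, and which lists' own peaks cover a window was not measured. Capitals mark motif letters found on either strand: AP-1 (TGANTCA), TEAD (CATTCC), CEBP (TTGCNNAA) and SP/KLF (GGGCGG); adjoining matches run together. The windows are chr7:128830156-128830405 (plus strand) for FLNC, chr15:70853128-70853377 (plus strand) for LRRC49, chr17:19718980-19719229 (minus strand) for SLC47A2, chr1:89022867-89023116 (minus strand) for GBP3, chr2:157838631-157838880 (minus strand) for ACVR1, chr12:94262369-94262618 (plus strand) for PLXNC1, chr4:41256678-41256927 (plus strand) for UCHL1 and chr12:59595779-59596028 (plus strand) for SLC16A7. FLNC, LRRC49 and SLC47A2 came from the rule for named members, and the other 5 were chosen after their values were seen. GBP3, ACVR1 and PLXNC1 were chosen to show AP-1 letters. UCHL1 (20 CpG) and SLC16A7 (15 CpG) were chosen to show starts with more CpG than the median of all promoters (11).
FLNC: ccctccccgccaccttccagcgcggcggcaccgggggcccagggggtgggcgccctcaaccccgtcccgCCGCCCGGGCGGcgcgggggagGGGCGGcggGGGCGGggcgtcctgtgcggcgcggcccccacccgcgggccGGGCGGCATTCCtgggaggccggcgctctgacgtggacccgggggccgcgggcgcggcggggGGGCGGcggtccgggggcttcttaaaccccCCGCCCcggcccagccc
LRRC49: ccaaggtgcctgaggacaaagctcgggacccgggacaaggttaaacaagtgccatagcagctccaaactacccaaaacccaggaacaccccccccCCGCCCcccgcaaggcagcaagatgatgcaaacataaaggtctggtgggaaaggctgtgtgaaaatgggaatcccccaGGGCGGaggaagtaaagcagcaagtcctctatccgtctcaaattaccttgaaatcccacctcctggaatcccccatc
SLC47A2: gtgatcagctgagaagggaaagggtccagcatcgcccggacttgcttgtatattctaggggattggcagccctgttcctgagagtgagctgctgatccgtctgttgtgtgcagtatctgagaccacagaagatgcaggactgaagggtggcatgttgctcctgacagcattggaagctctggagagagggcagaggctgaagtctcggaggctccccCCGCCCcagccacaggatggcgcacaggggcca
GBP3: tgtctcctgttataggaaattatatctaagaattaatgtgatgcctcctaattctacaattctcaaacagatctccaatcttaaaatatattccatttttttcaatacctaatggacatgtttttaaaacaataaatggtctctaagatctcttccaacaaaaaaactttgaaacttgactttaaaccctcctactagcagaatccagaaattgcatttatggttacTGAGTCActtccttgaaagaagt
ACVR1: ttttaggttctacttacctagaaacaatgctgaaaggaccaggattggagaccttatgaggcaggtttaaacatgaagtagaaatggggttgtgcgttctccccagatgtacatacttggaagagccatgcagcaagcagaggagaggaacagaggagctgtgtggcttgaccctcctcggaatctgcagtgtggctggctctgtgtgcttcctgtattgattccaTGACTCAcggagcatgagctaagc
PLXNC1: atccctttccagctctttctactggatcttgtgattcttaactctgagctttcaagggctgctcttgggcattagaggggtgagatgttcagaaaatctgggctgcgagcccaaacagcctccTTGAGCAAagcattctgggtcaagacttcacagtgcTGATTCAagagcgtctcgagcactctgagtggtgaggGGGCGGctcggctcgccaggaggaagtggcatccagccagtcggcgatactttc
UCHL1: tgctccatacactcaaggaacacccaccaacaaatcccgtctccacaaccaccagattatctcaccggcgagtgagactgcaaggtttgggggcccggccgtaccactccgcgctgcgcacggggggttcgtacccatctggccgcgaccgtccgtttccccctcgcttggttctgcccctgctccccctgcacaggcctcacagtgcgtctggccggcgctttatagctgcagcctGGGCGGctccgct
SLC16A7: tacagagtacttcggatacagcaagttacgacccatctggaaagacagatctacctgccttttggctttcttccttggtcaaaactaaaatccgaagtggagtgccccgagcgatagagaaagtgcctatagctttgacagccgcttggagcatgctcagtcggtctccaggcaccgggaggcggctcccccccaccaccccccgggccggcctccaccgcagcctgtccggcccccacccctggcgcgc
The 8 starts were unlike each other in composition. FLNC, which encodes the actin crosslinker filamin C, had 38 CpG and 85.6% GC with many SP/KLF matches and a TEAD match. GBP3, which encodes an interferon-inducible GTPase, had 0 CpG and 30.8% GC with a single AP-1 match near the start. The ACVR1 window precedes a start inside the gene of this activin and BMP receptor and had 3 CpG and an AP-1 match. The SLC16A7 window, at the gene of a monocarboxylate transporter, had 15 CpG and held none of the 9 motifs searched.

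Outside chromosome 8, 88 RefSeq promoter windows of 250 bases, not limited to protein-coding genes, overlapped 74 members. AP-1 letters stood in 17 of the 88 (19.3%), against 6.55% of all 34789 promoters. The share was 3.72% in promoters on regions kept in all 8 lists, 36.2% on regions lost in both lines, 16.9% on regions lost in HCC44 only and 11.8% on regions that held a peak in 1 of the 2 H1975 ACBI1 lists. The promoters at members thus held AP-1 letters more often than those on kept regions and less often than those on regions lost in both lines. The SP/KLF letters, typical of CpG-rich promoters, showed the reverse order, with 43.2% at members, 71.1% on kept regions and 18.1% on regions lost in both lines (42.6% of all promoters). The median number of CpG per window was 7 at members, 22 on kept regions, 3 on regions lost in both lines and 11 over all promoters. ETS letters (CCGGAAG) stood in 6.82% of the members' windows, 16.3% of those on kept regions and 8.48% of all promoters. Forkhead (TGTTTAC), RUNX (TGTGGTT), ZEB (CAGGTG), TEAD and CEBP letters stood in 5.68%, 6.82%, 18.2%, 13.6% and 11.4% of the members' windows, against 2.98%, 3.65%, 17.5%, 11.9% and 9.05% of all promoters, and the CTCF core in 2 windows. A match says only that these letters are present, and windows of 1 region can overlap each other.

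**Figure D1:**
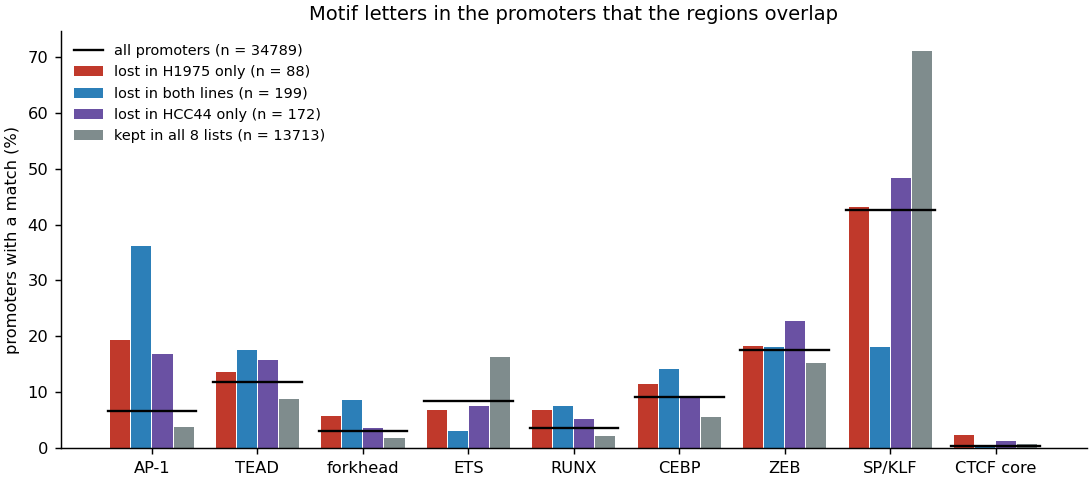
Percent of 250-base promoter windows (y axis) that hold the letters of each of 9 motifs (x axis) on either strand, for promoters overlapped by each class of region (bars, n windows in the key) and for all RefSeq promoters (black lines). Chromosome 8 is left out. AP-1 letters stood in 19.3% of the windows at members, between 3.72% on kept regions and 36.2% on regions lost in both lines.

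The lists held 43504 and 41003 peaks for H1975 DMSO, 27659 and 22115 for H1975 ACBI1, 50323 and 49921 for HCC44 DMSO, and 26295 and 24847 for HCC44 ACBI1. Read depth is unknown, so a peak missing from a list is not a measurement of closed chromatin. Every list started at a −log10 q between 10 and 10.2. Between 75.6% (H1975 ACBI1) and 84% (H1975 DMSO) of a group's regions were found in both replicates. Of the 29080 regions with a peak in all 4 DMSO lists, 28.3% had no H1975 ACBI1 peak, and most of those (7291 regions) had no HCC44 ACBI1 peak either. The reverse class, lost in HCC44 only, held 1825 regions, or 10.3% of the 17679 regions with a peak in all 4 DMSO and both H1975 ACBI1 lists.

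Members were weak peaks in H1975 before any drug. Ranked within each list by the authors' −log10 q over the same 16526 regions, on a scale from 0 (weakest) to 100 (strongest), the median member stood at the percentile 11.3 in H1975 DMSO replicate 1 and 10.4 in replicate 2, with a mean of 10.9 ± 0.65 (SD, n = 2). In the HCC44 DMSO lists it stood at 38.7 and 39.2 (38.9 ± 0.372, SD, n = 2). In the HCC44 ACBI1 lists, where members were kept, it stood at 10.8 and 10.5 (10.6 ± 0.261, SD, n = 2). The members were thus mid-ranked sites in HCC44 with DMSO that stood at the low end of the ranking with ACBI1, and low-ranked sites in H1975 with DMSO that were not listed with ACBI1. Regions kept in all 8 lists had mean percentiles of 54.1, 51.8 and 54.1 in the same 3 groups. Regions with a peak in 1 of the 2 H1975 ACBI1 lists were close to the members, at 13.4, 29.2 and 13.4. Ranked by the authors' fold enrichment instead, the members' medians were 37.3 in H1975 DMSO, 50.2 in HCC44 DMSO and 36.3 in HCC44 ACBI1. This keeps the order of HCC44 DMSO above both others but places the members less low. A second ranking by −log10 q used the 29080 regions with a peak in all 4 DMSO lists. There regions lost in both lines also ranked low in H1975 DMSO, at 26.3, with 32.4 in HCC44 DMSO. Members stood at 16 and 51.4, kept regions at 68.5 and 63.9, and regions lost in HCC44 only at 64.5 and 45.3.

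Most members ranked lower in HCC44 with ACBI1 than with DMSO. The percentile was lower in both HCC44 ACBI1 lists than in both HCC44 DMSO lists for 380 of the 519 (73.2%), against 26.6% of all 6-list regions and 55.4% of the regions with a peak in 1 of 2 H1975 ACBI1 lists. It was higher in both HCC44 DMSO lists than in both H1975 DMSO lists for 410 members (79%), against 35.6% of all 6-list regions. For the regions with a peak in 1 of 2 H1975 ACBI1 lists this share was 64.2%. Peak width was measured as the bases that a list's peaks covered in the region. The peak was narrower in both HCC44 ACBI1 lists than in both HCC44 DMSO lists for 385 members (74.2%). This was so for 63.5% of all 6-list regions and 64.4% of those with a peak in 1 of 2 H1975 ACBI1 lists. The ranks come from lists that chose the members, so these shares describe the members and support nothing further.

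**Figure D2:**
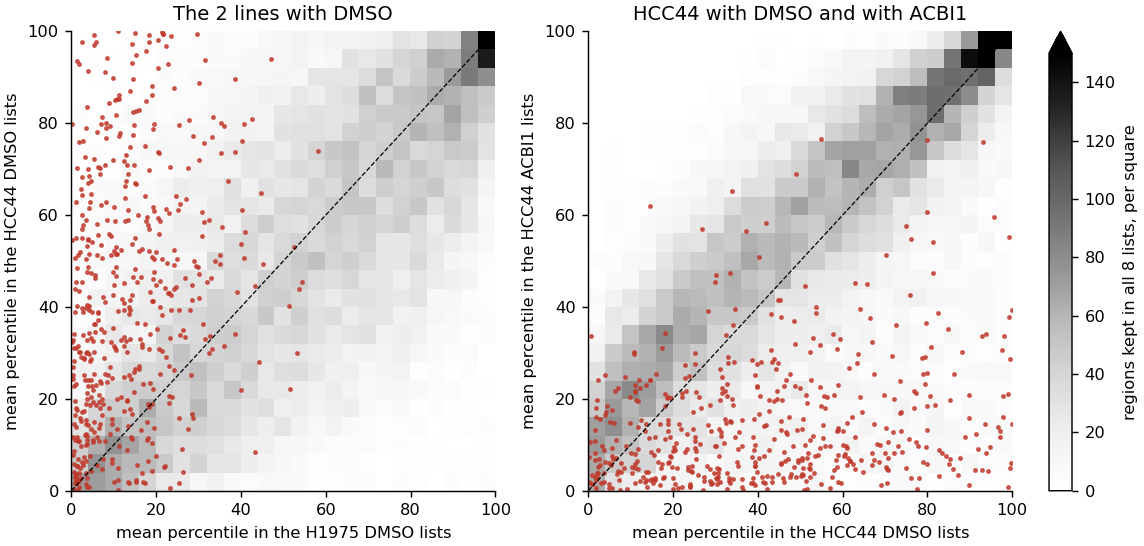
Mean percentile of each region by −log10 q among the 16526 regions with a peak in all 4 DMSO and both HCC44 ACBI1 lists: H1975 DMSO (x) against HCC44 DMSO (y) on the left, HCC44 DMSO (x) against HCC44 ACBI1 (y) on the right; red points are the 519 members, grey squares count regions kept in all 8 lists, and the dashed line marks equal percentiles. Red points gather at the left edge of the first panel and along the bottom of the second, with medians of 10.9, 38.9 and 10.6.

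The authors' −log10 q values follow list by list, since depth and background of a library enter them. The members' medians were 25.8 and 24.7 in the H1975 DMSO lists, 42.9 and 38.7 in the HCC44 DMSO lists, and 18.2 and 16.7 in the HCC44 ACBI1 lists. Regions kept in all 8 lists had medians of 71.4 and 71.9, 50.8 and 44.8, and 39.9 and 38 in those lists, and of 76.7 and 58.6 in the H1975 ACBI1 lists. Members thus sat close to the start of the lists in HCC44 ACBI1 and far below kept regions in H1975. The lowest of the 6 values was at least 20 in 71 members (13.7%), against 12048 kept regions (79.9%). Member peaks were also narrow in H1975, with a median width of 447 bp in DMSO replicate 1 and 386 bp in replicate 2, against 1029 and 971 bp for kept regions. This was shared with regions lost in both lines, at 420 and 365 bp, and regions with a peak in 1 of 2 H1975 ACBI1 lists had 563 and 506 bp. In HCC44 the members' peaks had medians of 902 and 921 bp in the DMSO lists, and the ACBI1 lists had 557 and 554 bp.

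**Figure D3:**
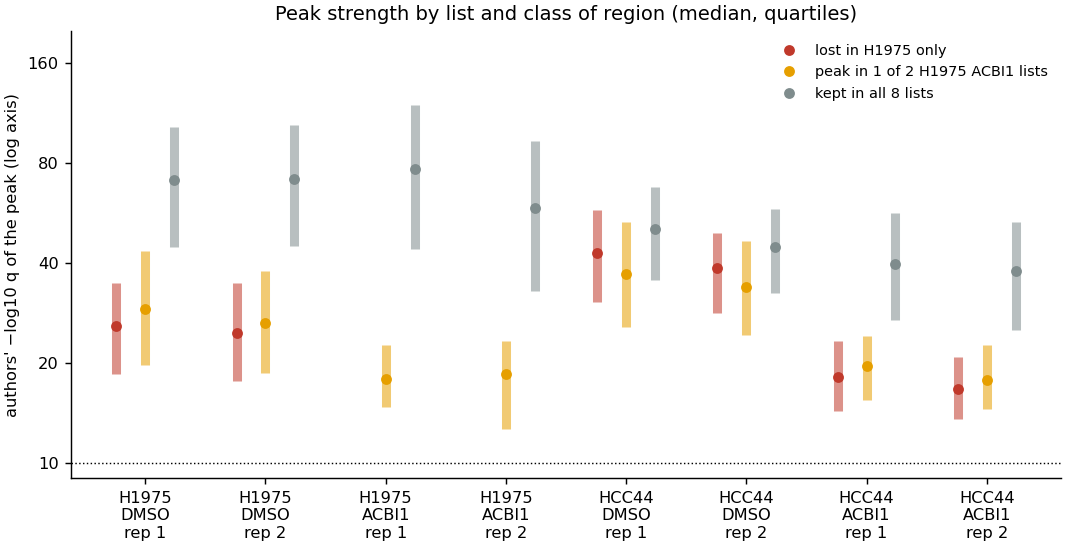
Authors' −log10 q of the peak (y axis, log scale) in each of the 8 lists (x axis) for members, for regions with a peak in 1 of 2 H1975 ACBI1 lists and for regions kept in all 8 lists; points are medians, bars run from the lower to the upper quartile, and the dotted line is at 10, near the lowest value in the lists. The members' medians lie between 16.7 and 18.2 in HCC44 ACBI1, and members have no value in H1975 ACBI1.

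The size of the class depended on single lists. A further 937 of the 6-list regions had a peak in 1 of the 2 H1975 ACBI1 lists, 898 of them in replicate 1 only and 39 in replicate 2 only, with a median −log10 q of 17.9 and 18.6 there. The weakest of these lay at PRKCA (chromosome 17, 66507822 to 66509841) with a −log10 q of 10.4 in its single list. Without H1975 ACBI1 replicate 1 the rule gave 1417 members, and without HCC44 ACBI1 replicate 2 it gave 790. With every list cut to its 22115 strongest peaks it gave 79, of which 35 were among the 519, and with a minimum −log10 q of 20 it gave 173, of which 71 were among them. The name of the class therefore refers to peak calls at the deposited threshold.

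Few members had a listed H1975 ACBI1 peak close by, and signal below the start of the lists could not be seen. The nearest peak lay a median of 23881 bp away in replicate 1 and 30816 bp away in replicate 2. Regions lost in both lines had similar medians, 20828 and 28458 bp. Only 1 member had one within 1 kb, at 720 bp, between genes 96516 bp from MKLN1 (chromosome 7, 131012188 to 131013578). Of the 7291 regions lost in both lines, 23 in replicate 1 and 16 in replicate 2 had a peak that close. Within 5 kb a peak was found for 63 members (12.1%) in replicate 1 and 41 (7.9%) in replicate 2, against 12.8% and 9.5% of the regions lost in both lines. Inside the merged regions, a H1975 DMSO peak and a HCC44 ACBI1 peak overlapped each other directly in 483 members (93.1%). In the other 36 they lay side by side and were joined through peaks of the other lists, which occurred in 0.0796% of kept regions. These 36 included the members named below at AVL9, FLNC, LRRC49, KIRREL1, ARL14 and CCDC97, the boundary member of SKI and the member inside RERE. For them the ranks in H1975 DMSO and HCC44 ACBI1 belong to different stretches of DNA.

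Most members lay away from gene ends. Gene boundaries, taken as the start or end of a protein-coding gene and 1 kb to each side, held 59 members, or 11.4% (95% Wilson interval 8.92 to 14.4%, counting error only), against 61.7% of the regions kept in all 8 lists, 14.3% of those with a peak in 1 of 2 H1975 ACBI1 lists, 8.66% of those lost in HCC44 only and 3.17% of those lost in both lines. RefSeq transcription starts of protein-coding genes were also taken in place of gene ends, with chromosome 8 not used. Of the 501 members on the other chromosomes 49 (9.78%) lay at such a start, against 56.9% of kept regions and 1.57% of those lost in both lines. Bodies of protein-coding genes overlapped 290 members (55.9%), a share near those of regions lost in both lines (53.3%) or in HCC44 only (54.6%) and of regions with a peak in 1 of 2 H1975 ACBI1 lists (57.3%), and below the 80.2% of kept regions. Of the 460 members away from boundaries, 237 lay inside a gene, and in 154 of these (65%) a boundary of that gene held a peak in all 8 lists. For the nearest gene of the 223 members outside genes this was so in 130 (58.3%), against 53.7% of all protein-coding genes. Other classes of region were not measured this way, so these shares cannot be called particular to members. The members' merged regions had a median width of 1063 bp, between the 1298 bp of kept regions and the 644 bp of regions lost in both lines.

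Position and strength were related, and both went with membership. Among the 1197 regions away from boundaries in the weakest 10% by H1975 DMSO rank, 207 (17.3%) were members, and among the 456 boundary regions in that 10% 40 (8.77%) were. In the next 10% the shares were 11.8% of 1123 and 2.26% of 530. No member at a boundary ranked above the weakest 30%, and none elsewhere above the weakest 60%. The share was lower at gene boundaries in each of the 6 weakest bins of 10%. In bins 4, 5 and 6 it was 0 at boundaries, against 29, 13 and 7 members elsewhere. Ranks inside a bin were not matched. The bins come from lists that chose the members, so this is a description only.

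**Figure D4:**
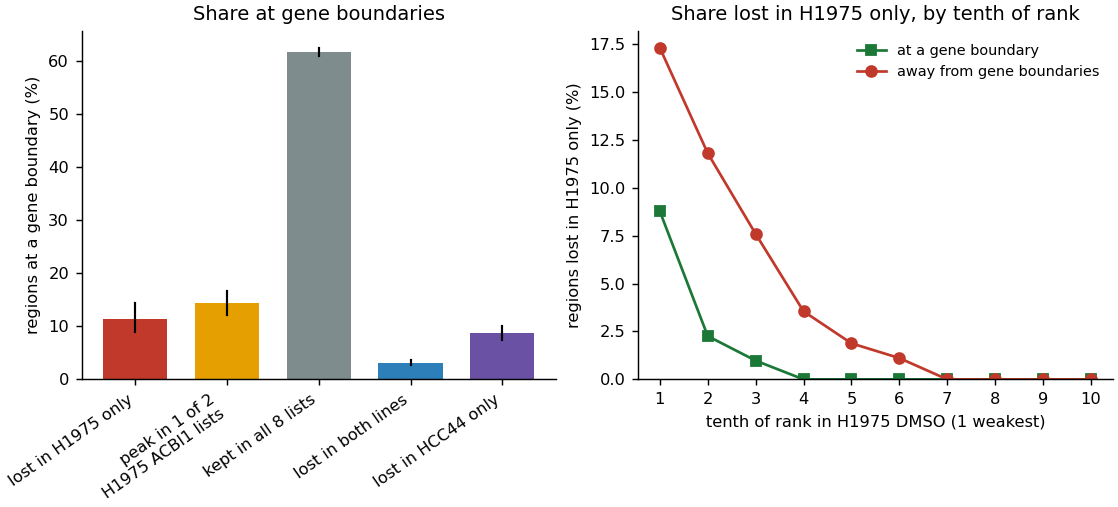
Left: percent of regions at a boundary of a protein-coding gene (y axis) for 5 classes of region (bars, with 95% Wilson intervals as lines). Right: percent of 6-list regions that were members (y axis) in each of 10 equal bins of mean rank in H1975 DMSO (x axis, 1 weakest), at gene boundaries (squares) and away from them (circles); it is 17.3% away from boundaries and 8.77% at boundaries in the weakest bin, and 0 in the strongest.

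The members with the highest rank in H1975 DMSO were all away from gene ends. The first lay on chromosome 7 (17598939 to 17600683), 190078 bp from SNX13, a sorting nexin gene. Its −log10 q was 66.6 and 86.9 in H1975 DMSO, 59.6 and 63.8 in HCC44 DMSO, and 11.8 and 19.2 in HCC44 ACBI1. It ranked at 58.1 in H1975 DMSO and 74 in HCC44 DMSO and at 8.35 in HCC44 ACBI1, so a site above the middle of both DMSO rankings ended near the bottom of the HCC44 ACBI1 ranking and outside the H1975 ACBI1 lists. A member inside CLDN10, which encodes a tight junction claudin (chromosome 13, 95535138 to 95535773), had a −log10 q of 72.5 and 63.9, 49.1 and 35, and 22.2 and 18.2 in those groups. It ranked at 51.3 in H1975 DMSO, 40.3 in HCC44 DMSO and 16.8 in HCC44 ACBI1. The member 26883 bp from MYL12B, a myosin regulatory light chain gene (chromosome 18, 3305344 to 3306613), had 64.5 and 61.8 in H1975 DMSO, 86.7 and 85.9 in HCC44 DMSO and 28.3 and 27.5 in HCC44 ACBI1. It ranked at 47.1 in H1975 DMSO, 93.9 in HCC44 DMSO and 34.2 in HCC44 ACBI1. In all 3 of these members the HCC44 ACBI1 ranks were below the HCC44 DMSO ranks.

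Chromosome 3 held 3 of the 10 strongest. A member 9857 bp from LSAMP, which encodes a neural cell adhesion protein (115790827 to 115792517), had a −log10 q of 74.8 and 66.1 in H1975 DMSO, 41 and 31.4 in HCC44 DMSO, and 30.2 and 39.5 in HCC44 ACBI1. Unlike most members its mean percentile was higher in HCC44 ACBI1 (47) than in HCC44 DMSO (30). The member 98244 bp from ZBTB20, a transcriptional repressor gene (115245532 to 115246175), stood at 49.4 in HCC44 DMSO and at 6.65 in HCC44 ACBI1. The third lay 9363 bp from ARL14, a small GTPase gene (160665864 to 160667797), with mean percentiles of 51.5 in H1975 DMSO, 22.1 in HCC44 DMSO and 21.2 in HCC44 ACBI1. The rest of the 10 lay by LOC124901803, inside STAU2, which encodes an RNA-binding transport protein, by KIRREL1, a cell adhesion gene, and by BLOC1S5, which encodes a subunit of a lysosome-related organelle complex. Their mean percentiles were 44.7 to 54.4 in H1975 DMSO and 4.08 to 28.6 in HCC44 ACBI1.

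Of the members at gene boundaries, the 15 highest in H1975 DMSO rank spanned mean percentiles of 13.4 to 25.5 there. Those reported here lay at ASAP1, AVL9, LRRN4, MFAP4, PCNX2, PTPRN, SAP30BP, PIGV, FLNC, LARP6 with LRRC49, RASA3, FBXO21, ZBTB42 and SLC47A2. ASAP1, which encodes a GTPase-activating protein of Arf proteins, stood apart from the others. Its −log10 q was 39.9 and 40.1 in H1975 DMSO, 39.4 and 36.5 in HCC44 DMSO and 46.5 and 45.3 in HCC44 ACBI1, and its mean percentile was 33.8 in HCC44 DMSO and 65.2 in HCC44 ACBI1. PCNX2 (chromosome 1, 232982297 to 232982879) showed the opposite order, with −log10 q of 33.5 and 41.1 in H1975 DMSO, 94 and 73.1 in HCC44 DMSO and 14.5 and 14 in HCC44 ACBI1. Its mean percentile was 92.9 in HCC44 DMSO and 4.54 in HCC44 ACBI1.

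MFAP4, which encodes an extracellular matrix glycoprotein (chromosome 17, 19386105 to 19388319), had a −log10 q of 41 and 35.3 in H1975 DMSO, 44.8 and 37.5 in HCC44 DMSO and 18.4 and 15.9 in HCC44 ACBI1. PTPRN, which encodes a phosphatase-like protein of neuroendocrine secretory granules (chromosome 2, 219308258 to 219309006), had 36.4 and 33.8, 62.5 and 60.1, and 21.1 and 19.5 in those groups. PTPRN ranked higher in HCC44 DMSO (73.6) than in H1975 DMSO (20.7), and MFAP4 did so by less (39.3 and 23.6). The members that hold the printed FLNC and LRRC49 starts were weak in HCC44 with either treatment. The FLNC member ranked at 18 in H1975 DMSO, 6.52 in HCC44 DMSO and 7.06 in HCC44 ACBI1. The LRRC49 member, which also reaches LARP6, a gene for a binder of collagen mRNA, ranked at 16.9, 1.91 and 18. In both members the H1975 DMSO peaks did not overlap the HCC44 ACBI1 peaks. The member at the SLC47A2 start, at the gene of an organic cation exporter, ranked at 13.4, 58.9 and 13.3.

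Of the members at the other 5 printed starts, those at SLC16A7 and UCHL1 ranked far higher in HCC44 than in H1975. SLC16A7 (chromosome 12, 59595778 to 59597747) had a −log10 q of 10.6 and 11.9 in H1975 DMSO, 74.8 and 58.9 in HCC44 DMSO and 57.2 and 51.3 in HCC44 ACBI1. In H1975 its peak was thus near the lowest value of the lists before treatment (mean percentile 0.106), while in HCC44 it ranked high with either treatment (79.8 and 76.3). UCHL1, the gene of a neuronal deubiquitinase (chromosome 4, 41256322 to 41257862), had 19.6 and 22.9, 59.4 and 58.2, and 37.9 and 36.5, and ranked at 6.85, 70.2 and 51.2. GBP3 (chromosome 1, 89021636 to 89023156) had 17.1 and 15.1, 51.6 and 58.3, and 15.7 and 15.3. Its mean percentile was 2.48 in H1975 DMSO, 64.3 in HCC44 DMSO and 6.63 in HCC44 ACBI1, so that it was high in HCC44 DMSO alone. ACVR1 (chromosome 2, 157837985 to 157839526) ranked at 10.3, 31 and 1.94 in the 3 groups, and PLXNC1, a semaphorin receptor gene (chromosome 12, 94262272 to 94263312), at 10.8, 20 and 2.78.

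A pair of other boundary members, GBP1 and MX2, was chosen after the values were seen, because both genes, like GBP3, encode interferon-inducible GTPases. GBP1 (chromosome 1, 89064287 to 89065645) had a −log10 q of 21.5 and 12.5 in H1975 DMSO, 33.8 and 37.3 in HCC44 DMSO and 17.5 and 16.5 in HCC44 ACBI1. MX2 (chromosome 21, 41361617 to 41362587) had 21.4 and 14.4, 32.2 and 38.2, and 12.2 and 15. Both ranked higher in HCC44 DMSO (30.1 and 29.7) than in H1975 DMSO (3.74 and 4.2) or HCC44 ACBI1 (9.65 and 3.96). Most members had these orders too (79% and 73.2%). Genes of this kind without a member were not counted as a set, so no interferon theme can be read from these members.

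Members near known genes were counted in 10 gene lists. A member lay from 50 kb before to 50 kb after 780 of the 15374 protein-coding genes with any 6-list region there (5.07%). In the 10 lists this was so for 12 of 152 such genes (7.89%). With windows of 10 kb it was so for 5 of 142 (3.52%). The share over all genes was not counted for 10 kb windows, so the 5.07% is no background for that value. Single lists are too small for a count of 0 to be set apart from the share over all genes. Of the 24 STING and interferon genes with a region, which the title of the series refers to, 0 had a member, nor did any of the 10 AP-1 subunit genes, the 10 lung lineage genes or the 11 NRF2 genes. The STING and interferon list did not hold GBP1, GBP3 or MX2.

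Of the 25 SWI/SNF genes 2 had a member. ARID1A, which encodes the DNA-binding subunit of BAF, had 3 of its 8 regions as members, 2 inside the gene and 1 at PIGV, 17272 bp away. The member at 26705187 to 26706539 on chromosome 1 had a −log10 q of 27.2 and 16.2 in H1975 DMSO, 35.9 and 34.6 in HCC44 DMSO and 11.8 and 12.5 in HCC44 ACBI1, and the one at 26723180 to 26723936 had 21.7 and 13.6, 48.3 and 37.5, and 11.1 and 11.3. Both were near the lowest value of the HCC44 ACBI1 lists. DPF1, a subunit gene of the neuronal BAF form, held 1 member inside the gene with 17.6 and 17.1, 55.9 and 39.9, and 19.5 and 11.6. No member lay near SMARCA2, SMARCA4 or PBRM1, the targets of ACBI1.

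Among growth and adhesion genes, MET, the hepatocyte growth factor receptor gene, held 2 members, both inside the gene. The one at 116706106 to 116707104 on chromosome 7 had a −log10 q of 45.9 and 65.2 in H1975 DMSO, 40.3 and 22.9 in HCC44 DMSO and 20.5 and 17 in HCC44 ACBI1. The other, at 116786612 to 116787131, had 43.7 and 29.2, 22.2 and 18.8, and 14.6 and 15.1. KRT7, a simple-epithelium keratin gene, had a member 10773 bp away with 54.5 and 47.9, 75.8 and 57.6, and 27.9 and 23.2. The member inside CLDN16, 22647 bp from CLDN1, a tight junction gene, had 43.8 and 44.4, 56.8 and 37.8, and 43 and 54.7. Its mean percentile was 29.5 in H1975 DMSO, and in HCC44 it was higher with ACBI1 than with DMSO (69 against 48.9).

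The remaining listed genes had 1 member each. ZEB2, a repressor of epithelial genes, held 1 inside the gene that was its single region, with a −log10 q of 16.8 and 16.2 in H1975 DMSO, 33.7 and 40.9 in HCC44 DMSO and 20.4 and 22.7 in HCC44 ACBI1. NFKBIA, the inhibitor of NF-kB, had 1 at 15558 bp with 37.6 and 36.7, 47.1 and 45.6, and 16.7 and 13.9. AXL, CCN1 and TEAD2 of the YAP and TEAD list and TGFB1 had theirs 25469, 29281, 28309 and 3896 bp away, nearer to or inside other genes (CYP2S1, DDAH1, KASH5 and CCDC97). MYC had 1 at 16644 bp, with 27.2 and 23.8 in H1975 DMSO, 239 and 239 in HCC44 DMSO and 30.7 and 30.3 in HCC44 ACBI1. That member ranked at the top of the HCC44 DMSO lists (mean percentile 100, rounded), at 11.1 in H1975 DMSO and at 39.4 in HCC44 ACBI1.

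Only 4 genes had 3 or more members within 50 kb: ARID1A, PDE4D (3 of 8 regions), RERE (3 of 10) and SKI (3 of 9). A further 736 protein-coding genes had 1 member and 40 had 2. The 4 were picked for the highest counts, and 3.14% of all 6-list regions were members, so clustering cannot be read from them. PDE4D encodes a cAMP phosphodiesterase, and its members lay inside the gene on chromosome 5. The one at 59079926 to 59080626 had a −log10 q of 48.9 and 52.3 in H1975 DMSO, 74.2 and 59.3 in HCC44 DMSO and 22.5 and 19.4 in HCC44 ACBI1, and the other two ranked at 20 and 6.14 in H1975 DMSO. At SKI, a repressor of TGF-beta signalling, the member at the gene boundary had 14 and 11, 30.5 and 23.7, and 49.1 and 39.1. Its mean percentile was near 0 in H1975 DMSO (0.545), 14.6 in HCC44 DMSO and 61.9 in HCC44 ACBI1. The H1975 DMSO peaks there did not overlap the HCC44 ACBI1 peaks, so these ranks are not of the same stretch of DNA. RERE encodes an atrophin-family corepressor, and the member inside it had 18.8 and 20, 37.1 and 37.2, and 10.5 and 11.6.

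Members were spread over all chromosomes, with some unevenness. Away from gene boundaries they made up 6.53% of the 6-list regions. The share was highest on chromosomes 13 (21 of 151, 13.9%, 95% Wilson interval 9.28 to 20.3%), 21 (11 of 90, 12.2%, 6.96 to 20.6%) and 6 (37 of 350, 10.6%, 7.77 to 14.2%). It was lowest on chromosomes 22 (2 of 176, 1.14%, 0.312 to 4.05%) and 19 (9 of 376, 2.39%, 1.26 to 4.49%). Median H1975 DMSO percentiles of the regions away from boundaries were 30.9 on chromosome 13, 27.4 on chromosome 21, 38.6 on chromosome 22 and 37 on chromosome 19, against 33.5 over all. The high pair thus also had lower ranks in H1975 DMSO, but chromosome 15, with a median of 27.2, had a share of 4.62%, and the part of rank in this was not tested.

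**Figure D5:**
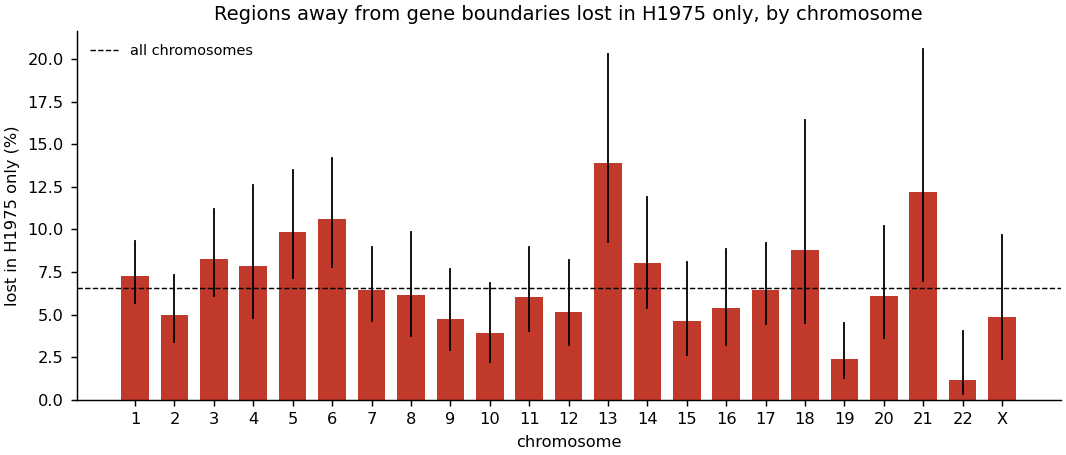
Percent of the 6-list regions away from gene boundaries that were members (y axis) on each chromosome (x axis); bars are shares, lines are 95% Wilson intervals that cover counting error only, and the dashed line is the share over all chromosomes (6.53%). Chromosomes 13 and 21 stand highest, with 13.9% and 12.2%, and chromosome 22 lowest, with 1.14%.

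The surroundings of members were mixed. Within 50 kb, 414 of the 519 had another region with a peak in all 4 DMSO lists, 1142 such neighbours in all, neighbours being counted once for each class. Of these 32.1% had no H1975 ACBI1 peak, 37.3% had no HCC44 ACBI1 peak, 47% had a peak in all 8 lists and 3.68% were members. The neighbours of kept regions had 24.4%, 33.9%, 55.5% and 1.57% of these kinds, and those of regions lost in both lines 32%, 42.6%, 45.3% and 1.86%. Around members, losses in H1975 were thus about as common as around regions lost in both lines, and kept sites still made up the largest of these shares.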

How the data were processed

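ATAC-seq peak lists of 8 samples were used, 1 list per sample in the broadPeak layout without a header, so peaks were called per sample. Reads were aligned with BWA to hg38, per the submitters' processing notes; the peak caller and its filters are not given in the sources used here. The fold enrichment of each peak is the authors' deposited ratio, and its significance is the authors' deposited −log10 q. Both served only for description, ranking and filtering inside single lists. The deposited −log10 p and score columns were not analysed. The members, lists and rules were chosen with earlier results of these data known.

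Groups came from the labels. Peaks on chromosomes 1 to 22 and X were merged where they overlapped by 1 bp or more, and a list's highest −log10 q, highest fold and summed peak width stood for it in a region. Gene ends (19974 protein-coding genes, 1 kb either side, no strand) and promoter sequences came from RefSeq GRCh38.p14 tables. No test was made, since peak presence in all lists chose the members. Named members were the 10 highest by H1975 DMSO rank, the 15 highest at gene boundaries, genes with 3 or more members, members within 50 kb of a listed gene and the regions next to the threshold; 1 of them is not reported here. Alternatives were a −log10 q of 20, a fold of 5, merging at 1 kb, 25% cover, equal list lengths, other windows, genes and ranks, and leaving out each sample. Direct overlap of peaks, transcription starts and the lists of 1 replicate number alone were added after seeing the data. Motifs in members away from promoters were not analysed here. Python 3.11.15 with numpy 2.4.6, pandas 2.3.3, scipy 1.17.1 and matplotlib 3.10.9 was used, and the functions were tested on simulated data.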

Additional observations from a re-analysis of the deposited data

How the results depend on the processing

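Of 106 values recomputed under other settings, 51 stayed within their spread and 55 moved, and the cause was not tested. With a minimum −log10 q of 20 there were 173 members, 17.9% at gene boundaries, with a median width of 1164 bp and median ranks of 7.36 in H1975 DMSO, 42.3 in HCC44 DMSO and 11.3 in HCC44 ACBI1. A fold enrichment of at least 5 gave 88 members, 4.55% at boundaries, 810.5 bp, ranks of 7.7, 26.3 and 6.52, and 1.14% with an H1975 ACBI1 peak within 1 kb. Equal list lengths gave 79 members, 6.33% at boundaries, ranks of 9.4, 50 and 4.46, and 0 with a peak nearby. Merging up to 1 kb gave 0 with a peak nearby by construction, and a cover of 25% gave 27.6%, since small peaks inside a region then no longer count as present, with ranks of 12.2, 39.5 and 10.1. Ranks by fold enrichment were 37.3, 50.2 and 36.3. The share at boundaries was 19.7% with 5 kb windows and 21.4% with all annotated genes. A peak lay within 5 kb for 12.3%. With 10 kb windows 5 listed genes had a member and 35.5% of neighbours had no H1975 ACBI1 peak.

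Leaving out each sample in turn gave 517 to 1417 members, the highest without H1975 ACBI1 replicate 1, with 9.75 to 14.7% at boundaries, widths of 958 to 1048 bp and ranks of 9.88 to 12.8 in H1975 DMSO, 33.2 to 39.3 in HCC44 DMSO and 9.7 to 12.1 in HCC44 ACBI1. In these settings HCC44 DMSO ranks stayed above the other two. Of the 519 members, 71 were also members at the −log10 q minimum, 83 at the fold minimum and 35 with equal list lengths. No paired analysis was possible because the results come from no test that could hold a replicate block. With only the 4 lists of 1 replicate number, a setting chosen after seeing the data, there were 1037 members (number 1) and 1930 (number 2), which held 512 and 511 of the 519. Read depth is unknown, so weak sites cannot be told apart from sites missed for lack of reads.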
